A study of Mus musculus with 24 samples.

Results

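The genes of arginine metabolism and nitric oxide synthesis described here, in macrophages of a knockout of the glucose transporter gene Slc2a1 and of its control, were Slc7a2, Nos2, Gch1, Arg1, Arg2, Ass1, Asl and Odc1. They were the 8 genes with these names in the scanner files, of 25956 genes tested, and all 10 of their probes, of 56605 gene probes on the array, exceeded the background mark of the scanner software on all 24 arrays. RNA came from mouse bone marrow derived macrophages, differentiated over 6 days of culture (M-CSF, 20 ng/ml) and hybridised to single-colour Agilent arrays, 1 culture per array. The KO cells carried LysMCre, which expresses Cre recombinase from the lysozyme gene in myeloid cells, and Slc2a1fl/fl, a design meant to remove GLUT1 from the myeloid lineage (Slc2a1M-/-). The WT cells were the Slc2a1 fl/fl floxed control, and both genotypes therefore carried the floxed allele. The WT cells are not described as carrying LysMCre, so Cre at the lysozyme gene and the deletion cannot be told apart in KO minus WT. Each genotype was studied in M1 (5 ng/ml LPS and 10 ng/ml IFNγ), in M2 (10 ng/ml IL-4) and in M0 (left untreated), over 24 h. Each of the 6 groups had 4 arrays, which the labels call biological replicates. The labels used here gave no age of the mice.

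Arginine enters macrophages through cationic amino acid carriers such as Slc7a2. Inducible nitric oxide synthase, encoded by Nos2, turns it into nitric oxide and citrulline with the cofactor tetrahydrobiopterin, whose synthesis starts with GTP cyclohydrolase 1 (Gch1), and argininosuccinate synthase (Ass1) and argininosuccinate lyase (Asl) rebuild arginine from citrulline. The arginases, cytosolic Arg1 and mitochondrial Arg2, instead split arginine into urea and ornithine, and ornithine decarboxylase (Odc1) makes the first polyamine from ornithine. In mouse macrophages Nos2 is a classical marker of M1 activation and Arg1 of M2 activation.

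The probes of both arginases, of the decarboxylase and of the lyase lie in coding exons and are shown so that the 2 arginases can be told apart and because Arg1 and Odc1 passed the test between the genotypes in M1, while Arg2 and Asl did not. Coordinates are on mm9 as the files give them, the letters run 5′ to 3′, and no base is marked.
Arg1 (chr10:24636194-24636253, minus strand): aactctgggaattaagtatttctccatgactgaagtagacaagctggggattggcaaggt
Arg2 (chr12:80252972-80253031, plus strand): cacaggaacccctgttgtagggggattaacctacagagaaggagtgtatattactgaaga
Odc1 (chr12:17554799-17554858, plus strand): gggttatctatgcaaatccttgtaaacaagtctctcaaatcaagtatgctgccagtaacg
Asl (chr5:130487513-130487736, minus strand): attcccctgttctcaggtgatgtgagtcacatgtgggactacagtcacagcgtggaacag
The Asl probe covers 224 bases of the genome with 60 bases and so spans an exon junction. The Odc1 probe shown is the dimmer of its 2 probes. The brighter one (chr12:17557831-17557890, plus strand) lies in the 3′ UTR, as do the probes of Nos2 (chr11:78773567-78773626, plus strand), Slc7a2 (chr8:42003321-42003380, plus strand), Ass1 (chr2:31376068-31376127, plus strand) and Gch1 (chr14:47775348-47775407, minus strand). The probe of Ass1 also matches the pseudogene Gm5424, by the accessions in the files, so its signal cannot be told apart from that of the pseudogene.

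Levels below are log2 intensities relative to the 75th percentile of the array, so that 0 is the level of that percentile. That percentile was 1504 to 2973 intensity units, and 53.1% to 71.4% of the gene probes of an array exceeded background. It was lowest on the KO M1 arrays (1504 to 1705, against 1810 to 2364 in WT M1), so the scaling raised KO M1 levels relative to WT M1. Before scaling, Nos2 averaged 360912 units in KO M1 and 480331 in WT M1, and Gch1 46574 and 67246. Asl averaged 10507 and 11441 on its brighter probe, lower in KO M1 before scaling and higher after it. The number of arrays limits the precision. The single Slc2a1 probe on the array, which starts at base 2501 of its transcript, read 6.00 ± 0.14 in KO M1 and 5.75 ± 0.50 in WT M1, and 2.48 ± 0.51 in KO M0 and 2.80 ± 0.70 in WT M0 (SD, n = 4). The labels do not say which exons are removed, so this probe checks neither the deletion nor the labels. The 7 macrophage markers were well above background on all 24 arrays. The arrays were put into 4 sets that each held all 6 groups once. The 4th set was defined as the arrays on which 3 Y-linked genes were not well above background. These were replicate 3 of M1, replicate 4 of M2 and replicate 2 of M0, in both genotypes. The remaining arrays were split into sets by slide, and the labels used here give no sex or batch. The 4th set stood apart for several members, as the values below show.

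**Figure D1:**
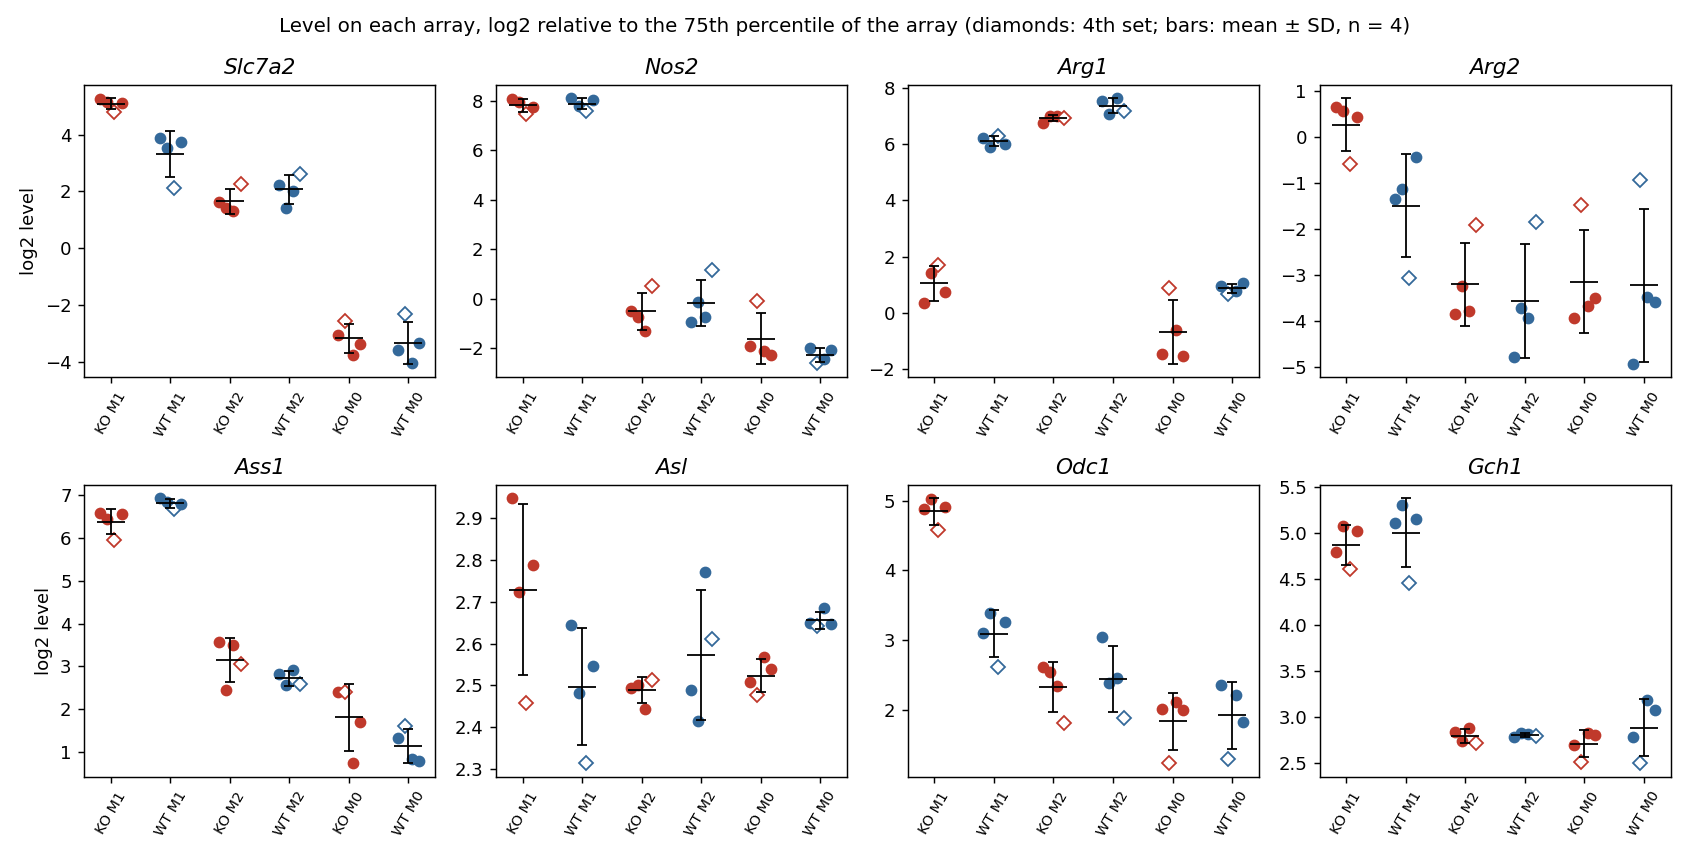
Levels of the 8 genes on each of the 24 arrays (log2 relative to the 75th percentile of the array, y axis) in KO and WT macrophages in M1, M2 and M0 (x axis), with points for arrays, open diamonds for the 4th set and bars for mean ± SD of 4 arrays. Arg1 lay between 0.36 and 1.71 in KO M1 and between 5.89 and 6.26 in WT M1, whereas Nos2 lay between 7.49 and 8.11 in both.

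The first comparison asked how these genes differed between KO and WT within a state. In M1 macrophages Arg1 fell 33.0-fold in KO, whereas Slc7a2 rose 3.39-fold and Odc1 rose 3.38-fold, and no difference was detected for Nos2. These 3 of the 8 genes passed the test (adjusted p under 0.05, limma with Benjamini-Hochberg adjustment over all genes), 2 higher and 1 lower in KO, against 43.9% of all genes tested, 22.7% higher and 21.2% lower. The share of members called was therefore close to that of all genes, and it is the size of single changes that is described here. The 8 differences had a median of 0.09 on the log2 scale, and all 25956 genes a median of 0.13. In M2 and in M0 limma called none of the 8 genes, where 0.0424% and 0.0539% of all genes were called. At an unadjusted p under 0.05 there were 0 members and 1150 of the 25956 genes in M2, and 2 members, Arg1 and Ass1, and 822 genes in M0.

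Arg1 separated the genotypes by the widest margin of the 8 genes. Its levels were 0.36, 1.41, 1.71 and 0.72 in KO M1 (replicates 1 to 4) and 6.22, 5.89, 6.26 and 6.01 in WT M1. Every KO M1 array lay more than 4 log2 units below the lowest WT M1 array. The difference was -5.04 ± 0.37 (SE, adjusted p = 1.0e-09), between -5.86 and -4.47 in the 4 sets and between -5.86 and -4.52 within the 3 slides. In M2, where Arg1 was brightest, its levels were 6.75, 7.0, 7.01 and 6.94 in KO and 7.54, 7.07, 7.62 and 7.18 in WT. These groups did not overlap, as for 2.35% of all genes that could be compared, but the difference of -0.43 ± 0.37 did not pass (adjusted p = 1.0, 95% interval -1.21 to 0.35). In M0 they were -1.45, 0.88, -0.60 and -1.55 in KO and 0.96, 0.68, 0.76 and 1.06 in WT. In M0 the 3 KO arrays outside the 4th set lay below all WT arrays, and the KO array of the 4th set lay among the WT arrays. With all arrays the M0 difference was -1.55 ± 0.37 and did not pass (adjusted p = 0.38). Without the 4th set it was -2.13 (adjusted p = 0.0033), and without KO M0 replicate 2 alone it was -2.06 (adjusted p = 0.00070).

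Arg2, the second arginase gene, had a wide spread in M1. It read 0.65, 0.56, -0.58 and 0.43 in KO M1 and -1.35, -1.13, -3.05 and -0.43 in WT M1. The KO array was above the WT array in all 4 sets, by 0.86 to 2.47, while the ranges of the groups overlapped. The difference of 1.76 ± 0.77 did not pass (adjusted p = 0.073). Of 10 alternatives other than leaving out single arrays, it passed in 5, with differences of 1.52 to 1.76 over all 10. With the replicate number as a block, 1 of these 5, it was the same size (adjusted p = 2.3e-04). Without WT M1 replicate 4 it was 2.11 (adjusted p = 0.048). Arg2 was among the dimmer members, with intensities from 79.7 units upward, and it varied most in M0, where the array of the 4th set read -1.48 in KO and -0.94 in WT and the other arrays read between -3.92 and -3.49 in KO and between -4.92 and -3.46 in WT.

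The arginine carrier Slc7a2 read 5.27, 5.17, 4.80 and 5.10 in KO M1 and 3.88, 3.54, 2.13 and 3.74 in WT M1. All 4 KO arrays lay above all 4 WT arrays, and the lowest WT value came from the 4th set. The difference was 1.76 ± 0.39 (adjusted p = 8.0e-04) and between 1.36 and 2.68 in the 4 sets. In M2 Slc7a2 averaged 1.65 ± 0.43 in KO and 2.07 ± 0.51 in WT, and in M0 -3.18 ± 0.51 in KO and -3.32 ± 0.74 in WT (SD, n = 4 each), and the groups overlapped. The M2 difference of -0.42 ± 0.39 did not pass (adjusted p = 1.0), with KO below WT in all 4 sets.

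Odc1 was measured by 2 probes that gave like differences. The brighter probe read 4.88, 5.03, 4.58 and 4.91 in KO M1 and 3.09, 3.39, 2.61 and 3.27 in WT M1, a difference of 1.76 ± 0.27 (adjusted p = 1.5e-05). The dimmer probe, whose sequence is given above, read 2.91, 3.26, 2.59 and 3.19 in KO M1 and 1.104, 1.44, 0.73 and 1.17 in WT M1, a difference of 1.88 ± 0.27 (adjusted p = 7.4e-06). For both probes the KO arrays all lay above the WT arrays. On the brighter probe M2 levels averaged 2.33 ± 0.36 in KO and 2.44 ± 0.47 in WT, and M0 levels 1.83 ± 0.41 in KO and 1.92 ± 0.48 in WT (SD, n = 4 each), which overlapped.

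Nos2 reached the highest level of its own range in M1 in both genotypes. It read 8.09, 7.95, 7.49 and 7.76 in KO M1 and 8.11, 7.79, 7.61 and 8.03 in WT M1, up to 563405 intensity units with 0 saturated gene spots. The groups overlapped almost entirely, and the difference was -0.06 ± 0.45 (adjusted p = 0.93, 95% interval -1.01 to 0.89). This SE pools the spread of all 6 groups, where the SD was 0.26 in KO M1 and 0.23 in WT M1 but 1.01 in KO M0. Gch1, at 4.79, 5.07, 4.61 and 5.02 in KO M1 and 5.11, 5.31, 4.46 and 5.16 in WT M1, likewise overlapped, with a difference of -0.13 ± 0.16 (adjusted p = 0.55, 95% interval -0.47 to 0.21).

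Ass1 read 6.58, 6.45, 5.94 and 6.57 in KO M1 and 6.94, 6.84, 6.68 and 6.79 in WT M1. Its groups did not overlap, with KO lower. With Arg1, Slc7a2 and Odc1 this makes 4 of the 8 genes whose groups did not overlap in M1, against 43.3% of all genes that could be compared. The difference of -0.43 ± 0.30 did not pass (adjusted p = 0.27), and under quantile normalization it was -0.80 and passed (adjusted p = 0.036). Asl was nearly level everywhere: its brighter probe lay between 2.31 and 2.95 on all 24 arrays. In M1 it averaged 2.73 ± 0.20 in KO and 2.50 ± 0.14 in WT (SD, n = 4 each), a difference of 0.23 ± 0.10 that did not pass (adjusted p = 0.065), but passed with the replicate number as a block (adjusted p = 0.020). Of 10 alternatives other than leaving out single arrays, that block included, it passed in 5, with differences of 0.23 to 0.27 over all 10. It also passed without KO M1 replicate 3 (0.32, adjusted p = 0.0095) and without WT M1 replicate 1 (0.28, adjusted p = 0.042). In M0 the Asl groups did not overlap (2.48 to 2.57 in KO and 2.64 to 2.69 in WT), as for 2.15% of all genes, and the difference of -0.13 ± 0.10 did not pass. The dimmer Asl probe, designed on another transcript, gave 0.24 ± 0.27 (adjusted p = 0.50). On that probe M1 minus M0 was -0.54 ± 0.27 in KO (adjusted p = 0.096) and -0.65 ± 0.27 in WT (adjusted p = 0.051). The WT change of Asl, -0.16 ± 0.10 on the brighter probe (adjusted p = 0.21), passed as the mean of both probes (-0.41, adjusted p = 0.031) and under quantile normalization (-0.36, adjusted p = 0.0017).

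**Figure D2:**
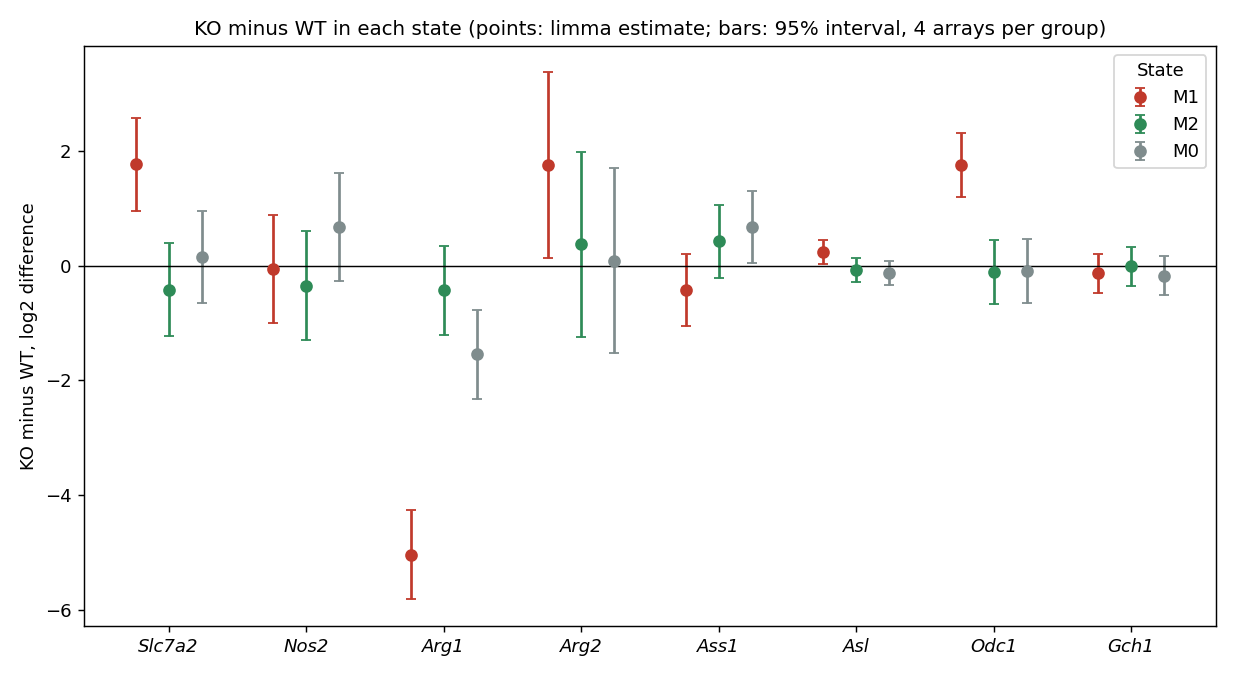
KO minus WT (log2 difference, y axis) for the 8 genes (x axis) in M1, M2 and M0, with points for limma estimates and bars for 95% intervals. Each group had 4 arrays, and the width of the bars uses the spread of a gene pooled over all 6 groups. The M1 difference was -5.04 for Arg1, 1.76 for Slc7a2 and 1.76 for Odc1, and the M2 intervals of all 8 genes include 0.

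Averaged over the 3 states, Arg1 was lower in KO by a log2 difference of -2.34 ± 0.21 (adjusted p = 2.5e-07) and Odc1 higher by 0.52 ± 0.15 (adjusted p = 0.015). These were 2 of 8 members, against 28.7% of all genes. With all arrays, none of the 8 passed in M2 or in M0. The Odc1 average came from M1, as Odc1 was slightly lower in KO in M2 (2.33 against 2.44 in WT) and in M0 (1.83 against 1.92 in WT). With the replicate number as a block, Arg2 (0.74, adjusted p = 0.0034) and Slc7a2 (0.50, adjusted p = 0.0066) also passed, and Slc7a2 passed without WT M0 replicate 2 (0.61, adjusted p = 0.033). Slc7a2 was higher in KO in M1 but lower in KO in M2 (1.65 against 2.07 in WT).

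The next comparison asked how each activation changed the members in each genotype. LPS with IFNγ raised 7 of 8 members in KO, all but Asl, against 56.4% of all genes called in either direction and 32.9% called higher. In WT it raised 6 of 8, all but Asl and Arg2, against 47.8% of all genes called and 25.9% called higher. Nos2 rose 697-fold in KO (log2 difference 9.44 ± 0.45, adjusted p = 1.2e-12) and 1156-fold in WT (10.17 ± 0.45, adjusted p = 1.2e-12), the largest response of the 8 genes in both genotypes. The difference between these Nos2 responses did not pass, also when each array was left out in turn (-0.96 to -0.23, adjusted p from 0.32 to 0.82). In M0 Nos2 had read -1.92, -0.12, -2.14 and -2.30 in KO and -2.01, -2.63, -2.43 and -2.09 in WT, and the KO value near 0 was from the 4th set. Slc7a2 rose 307-fold in KO (8.26 ± 0.39) and 100-fold in WT (6.64 ± 0.39). Ass1 rose 23.9-fold in KO (4.58 ± 0.30) and 51.2-fold in WT (5.68 ± 0.30). Gch1 rose by nearly the same log2 difference in both, 2.16 ± 0.16 in KO and 2.12 ± 0.16 in WT. Adjusted p values of these Slc7a2, Ass1 and Gch1 responses ran from 8.6e-13 to 1.8e-09.

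The M1 response differed between the genotypes for Arg1, Odc1 and Slc7a2. Arg1 rose 3.32-fold in KO (1.73 ± 0.37, adjusted p = 4.7e-04) and 37.5-fold in WT (5.23 ± 0.37, adjusted p = 5.7e-10), and the test of the difference between the responses gave -3.50 ± 0.53 (adjusted p = 2.9e-05). Odc1 rose 8.08-fold in KO (3.01 ± 0.27) and 2.25-fold in WT (1.17 ± 0.27), a difference between responses of 1.85 ± 0.38 (adjusted p = 7.1e-04), which its dimmer probe gave as 2.19 ± 0.38 (adjusted p = 1.4e-04). For Slc7a2 the responses differed by 1.62 ± 0.55 (adjusted p = 0.030). This Slc7a2 call was lost without KO M1 replicate 1 (1.55, adjusted p = 0.053), WT M1 replicate 3 (1.22, adjusted p = 0.066), KO M0 replicate 3 (1.42, adjusted p = 0.068), KO M0 replicate 4 (1.55, adjusted p = 0.052) or WT M0 replicate 2 (1.28, adjusted p = 0.069). The 3 members called were set beside 29.8% of all genes for this difference between responses. Arg2 rose in KO (3.40 ± 0.77, adjusted p = 8.0e-04), and in WT its change of 1.73 ± 0.77 did not pass (adjusted p = 0.072). WT Arg2 passed without WT M0 replicate 2 (2.49, adjusted p = 0.0078) or WT M1 replicate 3 (2.25, adjusted p = 0.026), both of the 4th set. The responses of Arg2 themselves differed by 1.67 ± 1.09, which did not pass (adjusted p = 0.29). With the replicate number as a block, the differences between M1 responses of Arg2 (1.67, adjusted p = 0.0052), Ass1 (-1.10, adjusted p = 0.0059) and Asl (0.36, adjusted p = 0.016) also passed. Ass1 also passed in that comparison without WT M0 replicate 2 (-1.25, adjusted p = 0.037) or KO M0 replicate 3 (-1.46, adjusted p = 0.0034), and Asl without WT M1 replicate 1 (0.41, adjusted p = 0.039) or KO M1 replicate 3 (0.45, adjusted p = 0.011).

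IL-4 raised 3 of 8 members in KO, Arg1, Slc7a2 and Ass1, against 13% of all genes called and 6.8% called higher. It raised 4 of 8 in WT, these 3 and Nos2, against 15.1% called and 6.26% called higher. Arg1 rose 194-fold in KO (7.60 ± 0.37, adjusted p = 4.8e-11) and 89.7-fold in WT (6.49 ± 0.37, adjusted p = 3.5e-10). Slc7a2 rose 28.4-fold in KO (4.83 ± 0.39) and 42.1-fold in WT (5.40 ± 0.39), so that this carrier gene rose under both activations. Ass1 rose by 1.34 ± 0.30 in KO (adjusted p = 0.0052) and by 1.59 ± 0.30 in WT (adjusted p = 0.0010), and the KO call was lost in a fit on the compared groups alone (adjusted p = 0.098). Nos2 in M2 read -0.51, -0.75, -1.32 and 0.49 in KO and -0.96, -0.13, -0.73 and 1.14 in WT, far below its M1 levels. Its M2 change was 2.12 ± 0.45 in WT (adjusted p = 0.0028) and 1.1 ± 0.45 in KO, which did not pass (adjusted p = 0.12) except without KO M0 replicate 2 (1.60, adjusted p = 0.013). No member differed between the genotypes in its IL-4 response, nor did any of the 25956 genes (0%) in limma, where 1 member, Arg1, and 256 of all genes had an unadjusted p under 0.05. That difference was 1.11 ± 0.53 for Arg1, whose 95% interval ran from 0.02 to 2.21.

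**Figure D3:**
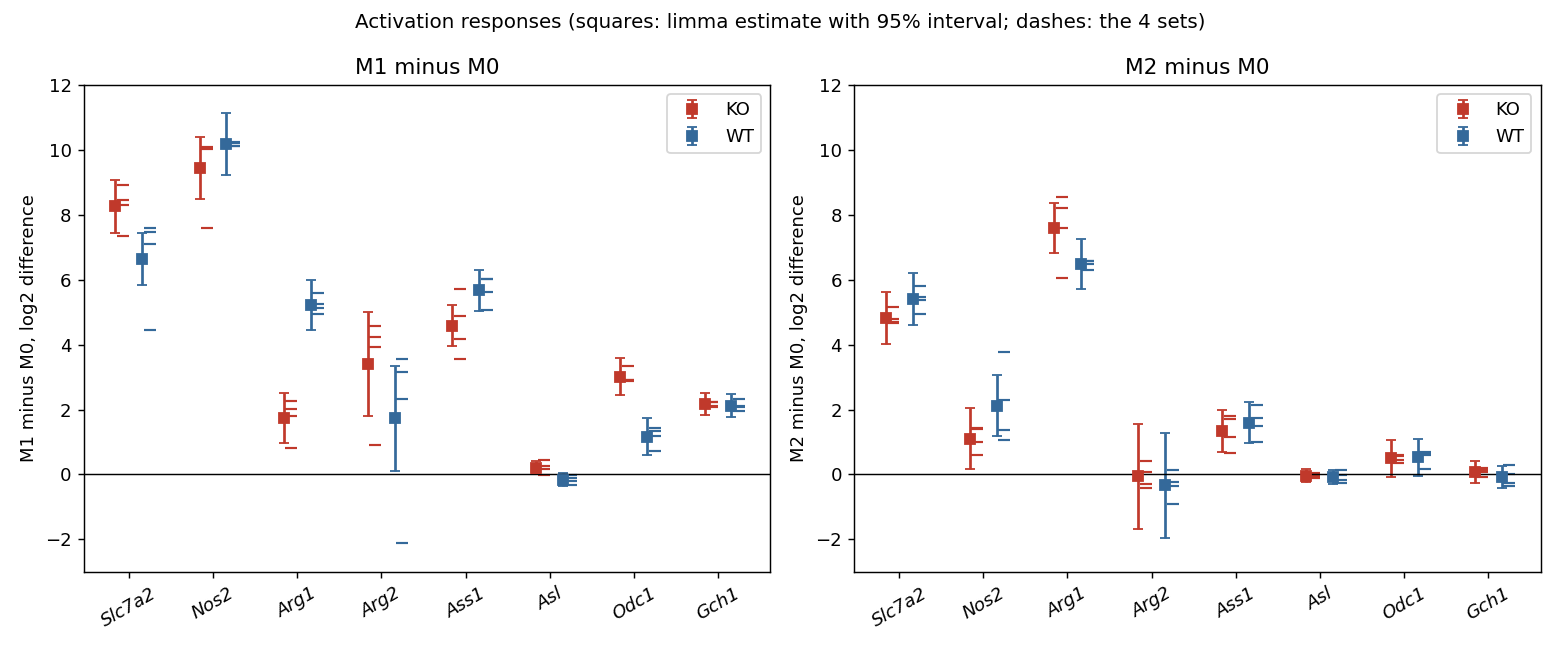
Activation responses of the 8 genes, M1 minus M0 (left) and M2 minus M0 (right), as log2 differences (y axis) in KO and WT, with squares and bars for limma estimates and 95% intervals and dashes for the 4 sets. Arg1 rose by 1.73 in KO M1 and by 5.23 in WT M1, and by 7.60 in KO M2 and 6.49 in WT M2.

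Set directly against each other, M1 and M2 differed in all 8 members in KO (57.2% of all genes) and in 6 of 8 in WT (47.8% of all genes). Arg1 was lower in M1 than in M2 by -5.87 ± 0.37 in KO (adjusted p = 4.7e-11) and by -1.26 ± 0.37 in WT (adjusted p = 0.0080), and this contrast differed between the genotypes by -4.61 ± 0.53 (adjusted p = 1.2e-06). In KO the 2 activation states thus differed 58.6-fold in Arg1, and in WT 2.39-fold. Slc7a2 was higher in M1 than in M2 by 3.43 ± 0.39 in KO and by 1.25 ± 0.39 in WT, a difference of 2.18 ± 0.55 (adjusted p = 0.0040). In WT the groups overlapped, and the 4th set went the other way (-0.50) while the other sets lay between 1.64 and 2.13. For Odc1 the contrast was 2.52 ± 0.27 in KO and 0.65 ± 0.27 in WT, a difference of 1.88 ± 0.38 (adjusted p = 6.1e-04). These 3 members stood beside 29.6% of all genes, and with the replicate number as a block Arg2 (1.39, adjusted p = 0.015), Ass1 (-0.85, adjusted p = 0.024) and Asl (0.32, adjusted p = 0.032) also passed. Nos2 was higher in M1 by 8.34 ± 0.45 in KO and 8.06 ± 0.45 in WT. The WT Arg2 contrast of 2.07 ± 0.77 (adjusted p = 0.033) did not pass without any of 6 of its 8 arrays in turn: WT M1 replicate 1 (2.02, adjusted p = 0.064), replicate 2 (1.95, adjusted p = 0.072) or replicate 4 (1.72, adjusted p = 0.11), or WT M2 replicate 1 (1.66, adjusted p = 0.11), replicate 2 (2.02, adjusted p = 0.064) or replicate 3 (1.95, adjusted p = 0.072). The KO Asl contrast of 0.24 ± 0.10 (adjusted p = 0.045) likewise did not pass without any of 7 of its 8 arrays, with values of 0.17 to 0.25 and adjusted p values of 0.062 to 0.17. WT Odc1, which did not pass (adjusted p = 0.053), did so without WT M1 replicate 3 (0.80, adjusted p = 0.023) or WT M2 replicate 1 (0.85, adjusted p = 0.015).

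The members' levels ordered the groups in different ways. Arg1 was highest in WT M2, then KO M2, then WT M1, with no overlap between these neighbours, and KO M1 overlapped with WT M0. Slc7a2, Odc1 and Arg2 were highest in KO M1 and next in WT M1, and these 2 groups overlapped for Arg2. Nos2, Ass1 and Gch1 were highest in WT M1 and next in KO M1, and these overlapped for Nos2 and Gch1. Asl was highest in KO M1, and all its neighbouring groups overlapped.

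RefSeq promoters on GRCm38.p6 were held for Ass1, Odc1 and Gch1, 3 of the 8 members, all of which rose in M1 in both genotypes. The 250 bases before the start are shown for the pair in which a searched motif was found, with the match in capitals.
Ass1 (chr2:31470020-31470269, plus strand): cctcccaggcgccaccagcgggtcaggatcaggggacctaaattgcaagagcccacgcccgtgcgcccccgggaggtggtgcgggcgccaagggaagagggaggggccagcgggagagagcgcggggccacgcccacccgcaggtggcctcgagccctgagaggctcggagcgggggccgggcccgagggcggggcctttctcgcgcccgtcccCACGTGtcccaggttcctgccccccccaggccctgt
Gch1 (chr14:47189414-47189663, minus strand): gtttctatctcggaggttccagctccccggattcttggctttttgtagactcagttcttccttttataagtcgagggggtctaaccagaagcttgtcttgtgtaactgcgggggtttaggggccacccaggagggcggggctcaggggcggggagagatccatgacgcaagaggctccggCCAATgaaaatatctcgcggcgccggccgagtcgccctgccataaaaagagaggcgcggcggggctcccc
The Ass1 match is the E-box CACGTG, whose first base lies 36 bases before the start, and 6.02% of 32851 promoter windows of this length hold it on either strand. The Gch1 match is the CCAAT box CCAAT, 70 bases before the start, held by 33.8% of windows. The other motifs searched on both strands were GAS (TTCNNNGAA), a STAT6 site, an NF-kappaB site, an AP-1 site (TGACTCA), CRE (TGACGTCA) and an ISRE core, held by 7.02%, 5.85%, 0.14%, 4.46%, 1.55% and 2.98% of windows, and their letters were not in these 3 windows. The 250 Odc1 bases held none of the 8 motifs.

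Other genes of the same pathways were read from 7 lists of 59 names, of which 53 were measured. The 53 hold Gucy1a1 also under its older symbol Gucy1a3, and neither entry passed in M1. In M1, 30 of the 53 passed, 13 higher and 17 lower in KO, with a median difference of -0.14 against 0.13 for all genes. That was 56.6% of the list genes, beside 43.9% of all genes, 22.7% higher and 21.2% lower, and the counts of single lists below stand against the same shares. In M2 and in M0 limma called none of the 53, of which 1 in M2 and 2 in M0 had an unadjusted p under 0.05, beside 1150 and 822 of all genes.

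Of the 7 genes of the arginine transport list, which also holds a heavy chain of carriers, KO M1 had 4 higher and 2 lower, and 1 did not pass. Slc7a1, the general cationic amino acid carrier, averaged 4.97 ± 0.14 in KO M1 and 2.19 ± 0.53 in WT M1 (SD, n = 4 each), a difference of 2.78 ± 0.60 (adjusted p = 6.5e-04). Its response to LPS with IFNγ was 3.03 ± 0.60 in KO and 0.39 ± 0.60 in WT, and these differed (2.64 ± 0.84, adjusted p = 0.021). Slc3a2, the heavy chain that Slc7a7 and other carriers need, was higher by 1.17 ± 0.16 (adjusted p = 2.9e-06), while Slc7a7, a light chain that exports cationic amino acids, was lower by a difference of -1.99 ± 0.33 (adjusted p = 3.7e-05). Slc7a1 and Slc7a2 thus rose together in KO M1, and Slc7a7 fell. Of 6 listed genes of the urea cycle and of other arginine use, 3 were measured and 2 were lower. Gatm and Gamt, which make creatine by way of arginine and glycine, differed by -1.46 ± 0.22 (adjusted p = 1.6e-05) and -1.22 ± 0.29 (adjusted p = 0.0016). Otc, Cps1 and Nags did not pass the filter on dim probes.

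Of 7 genes that link ornithine and proline, 2 were higher and 3 lower in KO M1. Ornithine aminotransferase (Oat), which moves ornithine towards proline and glutamate, averaged 4.42 ± 0.23 in KO M1 and 2.73 ± 0.24 in WT M1, a difference of 1.69 ± 0.14 (adjusted p = 3.4e-09). It fell in WT with LPS and IFNγ (-1.47 ± 0.14, adjusted p = 2.3e-08), and in KO the change was 0.21 ± 0.14 and did not pass (adjusted p = 0.20). Pycrl, a pyrroline carboxylate reductase, was lower by a difference of -1.16 ± 0.13 (adjusted p = 6.1e-07). Aldh18a1, which makes the same intermediate from glutamate, was higher by 1.04 ± 0.40 (adjusted p = 0.038), a call lost when any M1 array but KO replicate 3 was left out (0.97 to 1.09, adjusted p from 0.055 to 0.088). Prodh, the first enzyme of proline breakdown, fell with LPS and IFNγ by a difference of -2.39 ± 0.24 in KO and -2.10 ± 0.24 in WT. Pycr1, a mitochondrial reductase of proline synthesis, changed by 0.63 ± 0.78 in KO (adjusted p = 0.52) and rose by 2.2 ± 0.78 in WT (adjusted p = 0.025). The Pycr1 probe exceeded background on 21 arrays, the mean of its probes gave 0.15 in WT (adjusted p = 0.78), and the call was lost without WT M1 replicate 1 (1.94, adjusted p = 0.074), WT M1 replicate 4 (2.07, adjusted p = 0.060), WT M0 replicate 1 (2.11, adjusted p = 0.053) or WT M0 replicate 4 (1.78, adjusted p = 0.091).

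Of 14 listed polyamine genes, 13 were measured, and 4 were higher and 4 lower in KO M1. Azin1, an inhibitor of the antizymes that mark ornithine decarboxylase for degradation, averaged 5.61 ± 0.27 in KO M1 and 4.01 ± 0.25 in WT M1, a difference of 1.61 ± 0.28 (adjusted p = 6.6e-05). Spermidine synthase (Srm) was higher by 1.51 ± 0.39 (adjusted p = 0.0037), and so were Dohh by 0.94 ± 0.13 and Dhps by 0.88 ± 0.16, the enzymes that place hypusine, made from spermidine, on the translation factor eIF5A (both chosen after their values were seen). Azin2, the second antizyme inhibitor, went the other way, at -3.48 ± 0.63 in KO M1 and -0.79 ± 0.38 in WT M1, a difference of -2.70 ± 0.34 (adjusted p = 1.3e-06). Azin2 rose in M2 in both genotypes, by 2.41 ± 0.34 in KO and 2.29 ± 0.34 in WT. The antizyme genes Oaz1 (-0.30 ± 0.09) and Oaz2 (-0.72 ± 0.16) and the polyamine oxidase gene Paox (-0.87 ± 0.23), also chosen after their values were seen, were lower in KO M1 as well.

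Of 6 tetrahydrobiopterin genes, 1 was higher and 3 lower in KO M1. The higher one was Qdpr, at 4.17 ± 0.19 in KO M1 and 3.46 ± 0.17 in WT M1 (SD, n = 4 each), named after its values were seen. Pts and Spr, which complete the cofactor after the step of Gch1, differed by -1.09 ± 0.19 (adjusted p = 7.3e-05) and -1.35 ± 0.24 (adjusted p = 1.1e-04). Both fell with LPS and IFNγ in KO, Pts by a difference of -1.30 ± 0.19 and Spr by -1.61 ± 0.24, and in WT the changes were -0.09 ± 0.19 and -0.26 ± 0.24 and did not pass. Gchfr, which encodes a feedback regulator of GTP cyclohydrolase, was well above background on 1 of 4 KO M1 arrays and 4 of 4 WT M1 arrays. Its difference of -0.85 ± 0.28 (adjusted p = 0.019) was -0.15 and did not pass (adjusted p = 0.39) with another background correction. Without KO M1 replicate 3 it was -0.53 (adjusted p = 0.090), without WT M1 replicate 2 -0.78 (adjusted p = 0.052) and without WT M1 replicate 4 -0.74 (adjusted p = 0.061). Of 8 measured entries for partners of nitric oxide synthase and of nitric oxide, in which Gucy1a3 is an older symbol of Gucy1a1, 1 was higher and 2 lower. Nosip, an interactor of the endothelial synthase, differed by 0.52 ± 0.15 (adjusted p = 0.0059) and Nostrin, which moves that synthase inside the cell, by -1.03 ± 0.30 (adjusted p = 0.0086), which did not pass in a fit on the compared groups alone (adjusted p = 0.056). Nos3, the endothelial synthase, differed by -0.71 ± 0.25 (adjusted p = 0.023), which did not pass without KO M1 replicate 2 (-0.67, adjusted p = 0.055) or WT M1 replicate 3 (-0.54, adjusted p = 0.095). Ddah2, which breaks down methylated arginine that inhibits the synthases, fell with LPS and IFNγ by a difference of -3.18 ± 0.30 in KO and -3.08 ± 0.30 in WT.

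Of 9 transcription factors known to act on Nos2 or Arg1, 1 was higher and 1 lower in KO M1. Hif1a, an oxygen-regulated factor, averaged 6.77 ± 0.14 in KO M1 and 5.55 ± 0.35 in WT M1, a difference of 1.22 ± 0.23 (adjusted p = 1.9e-04). Stat6, the factor activated by IL-4, averaged 3.19 ± 0.15 in KO M1 and 4.16 ± 0.07 in WT M1, a difference of -0.98 ± 0.10 (adjusted p = 1.1e-07). Pparg, a nuclear receptor, fell in M1 by a difference of -3.61 ± 0.39 in KO and -3.30 ± 0.39 in WT.

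**Figure D4:**
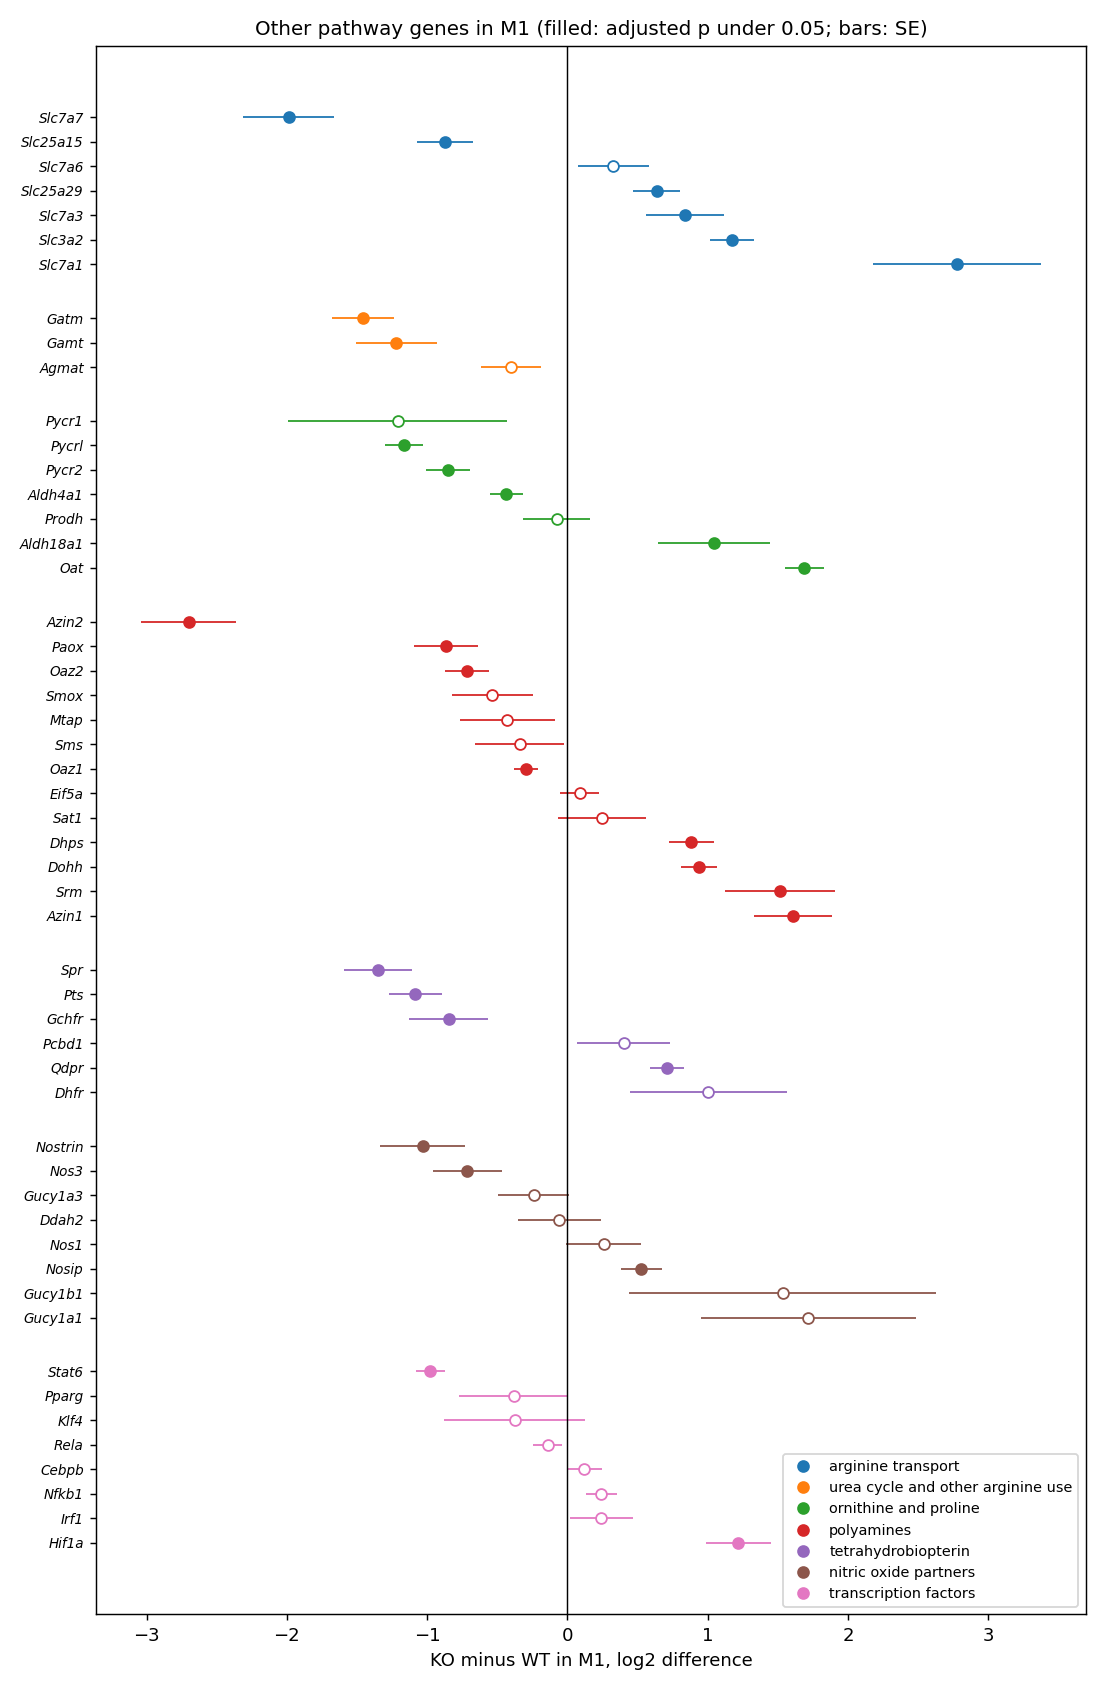
KO minus WT in M1 (log2 difference, x axis) for the measured genes of the 7 pathway lists but 1 (y axis, grouped and coloured by list), with filled points for genes that passed and bars for SE. The widest differences were 2.78 for Slc7a1 and -2.70 for Azin2.

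Of the 7 macrophage markers, Cd68 was higher (0.52 ± 0.10) and Mertk lower (-1.50 ± 0.34) in KO M1, and the other 5 did not pass. Markers of other cell types moved with the M1 comparison. The summed linear level of 6 neutrophil markers, relative to the 75th percentile, was 61.4 to 177 in KO M1 and 12.2 to 65.2 in WT M1, with S100a9, Camp and Ngp higher, Ly6g lower and S100a8 and Ltf not passing. The sum was 52.6 to 272 in KO M2 and 79.6 to 191 in WT M2, and 52.2 to 283 in KO M0 and 87.1 to 240 in WT M0. The sum of 2 endothelial markers, nearly all of it Kdr, was 5.58 to 11.1 in KO M1 and 0.773 to 2.39 in WT M1. That of 2 measured dendritic cell markers, most of it Zbtb46, was 0.165 to 0.443 in KO M1 and 0.536 to 0.880 in WT M1. Zbtb46 averaged -2.21 in KO M1 and -0.55 in WT M1. The dimmer Flt3 went the other way, at -4.36 and -5.03, and did not pass. The part of these other cell types in the M1 differences of the members was not tested. In bulk RNA fewer cells of a type and less RNA per cell cannot be told apart.

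For each member the 3 genes with the most alike pattern were found by the root mean square difference of log2 levels over the 24 arrays, each gene centred on its own mean, among 15896 candidates. Odc1 was closest to Aars (0.20), Azin1 (0.28) and Lrrfip2 (0.28), where the median over all candidates was 1.15. Nos2 was closest to Ubd (0.62), Acod1 (0.88) and Clic5 (0.96), with a median of 4.31. Ass1 was closest to Cd274 (0.56), Slamf8 (0.61) and Ggct (0.67), with a median of 2.21. Slc7a2 was closest to Cst7 (0.89), Socs1 (1.00) and Ramp3 (1.06), with a median of 3.20. Gch1 was closest to Gpd2 (0.20), Pgs1 (0.21) and Sco1 (0.21), with a median of 1.1. Arg2 was closest to Kdm6b (0.70), Hdc (0.71) and Gdap10 (0.72), with a median of 1.72. No candidate came as near to Arg1, whose closest were Ddx4 (1.59), Pdcd1lg2 (1.65) and Scimp (1.79) with a median of 3.36. Asl, by its brighter probe, was closest to Ufc1 (0.09), Ap3d1 (0.11) and Dazap2 (0.11), with a median of 0.56.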

How the data were processed

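Total RNA of 24 macrophage cultures was labelled with Cy3 and hybridised to Agilent single-colour arrays, per the labels' protocols. Per the file headers the scans were processed in Feature Extraction 10.7.3.1, while version 9.1 stands in the submitters' processing notes. The deposited values used are processed intensities, background-subtracted and detrended within the array, per the file headers, and not normalized between arrays. A mean and a background intensity per spot, also deposited by the authors, served for an alternative.

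Of 62976 spots per array, 3671 controls were removed, as were outlier spots. Replicate spots were averaged, log2 intensities were taken relative to the 75th percentile of the array, and probes well above background on at least 4 arrays were kept (39038 probes, 25956 genes), with the brightest probe for a gene. RefSeq accessions named 58.3% of probes. limma 3.58.1 under R 4.3.3 fitted 1 mean per group (18 residual degrees of freedom), and p-values were adjusted by Benjamini-Hochberg over all genes. The SE and interval of a difference therefore use the spread of the gene over all 6 groups, not over the compared groups alone. The same code was tested on simulated data. A deposited table of processed values was not used here.

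The replicate numbers, taken from the labels, were tried as a pairing of KO and WT within a state. Deviations from the group means of same-numbered arrays correlated at 0.17 to 0.84 in 12 of 12 pairs. A correlation over 0.1 in every pair was required, and 7 of the 12 correlated best with their own number. Arrays of unlike number also exceeded 0.1, such as KO M0 replicate 4 with WT M0 replicate 3 (0.39, against 0.17 with its own number). The highest own values, 0.84 in M0, 0.69 in M2 and 0.63 in M1, came from the 4th set. The rule therefore does not establish the pairing, and the fit with the replicate number as a block is given only as an alternative. Replicates are called biological in the labels. The members and the pathway lists were chosen with earlier results of these data known. The 8 members are always named. From each list the text names up to 3 genes that passed with the largest KO minus WT difference in M1 and up to 2 with the largest activation change. One gene that this rule takes is not reported here. Alternatives were normexp background correction (offset 50), quantile normalization, no filter, the mean of a gene's probes, a fit over all probes, blocks for replicate number, slide or set, leaving out the 4th set, a fit on the compared groups alone, and leaving out each array.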

Additional observations from a re-analysis of the deposited data

Results flagged for a closer look

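In the 48 combinations of member and group, each of 4 arrays, 1 array stood far from the others by Dixon's 95% criterion, which marks about 1 in 20 groups by chance. Odc1 read 1.23 in KO M0 replicate 2, an array of the 4th set, and 1.99 to 2.11 on the other KO M0 arrays.

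The response to LPS and IFNγ differed between KO and WT by a test of the difference itself for Arg1 (-3.50 ± 0.53, adjusted p = 2.9e-05), Odc1 (1.85 ± 0.38, adjusted p = 7.1e-04) and Slc7a2 (1.62 ± 0.55, adjusted p = 0.030). The contrast of M1 against M2 differed between KO and WT for Arg1 (-4.61 ± 0.53, adjusted p = 1.2e-06), Slc7a2 (2.18 ± 0.55, adjusted p = 0.0040) and Odc1 (1.88 ± 0.38, adjusted p = 6.1e-04).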

How the results depend on the processing

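No value of a member that passed the test turned its sign under any alternative run. The number of members called for KO minus WT in M1, 3 as reported, was 5 with normexp correction, quantile normalization, the replicate number as a block, the set as a block or without the 4th set, where all genes called were 11404 as reported and 13120, 11346, 14732, 14065 and 13355 under these settings. For the M1 response, KO minus WT, it was 5 with normexp, quantile, slide block or set block and 6 with the replicate block, against 3 (all genes 7480, 7925, 7954, 9984 and 10979, against 7739). For M1 against M2 between the genotypes it was 5 with quantile normalization and 6 with the replicate block, against 3 (all genes 7859 and 10796, against 7691). Averaged over the states it was 4 with the replicate block or without the 4th set, against 2 (all genes 11467 and 9786, against 7441), and for KO minus WT in M0 it was 1 without the 4th set, against 0 (all genes 24, against 14), and 0 to 1 when each array was left out. The block by replicate number changed no other call of a member than those given with the results, and it could not be fitted for comparisons within a genotype. Pathway counts in M1 moved over 1.5 times for nitric oxide partners (5 with replicate or set block, against 3) and transcription factors (5 with replicate block, against 2). The median of all genes for KO minus WT in M1, 0.13, was -0.05 under quantile normalization and 0.40 without the filter, and among the genes called, the share that was higher moved from 58.3% to 47.3% for M1 minus M0 in KO and from 59.7% to 47.4% for M1 minus M2 in KO under quantile normalization.

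Sign turns were found where neither value passed. Gch1 in the M1 response between genotypes was -0.021 with normexp and -0.23 with quantile normalization. Asl for M1 minus M0 in KO was -0.0065 with quantile normalization and -0.17 as the mean of its probes. Arg2 for M2 minus M0 in KO was 0.050 with quantile normalization and 0.069 without the 4th set. As means of probes the M2 responses between genotypes were -0.018 for Asl and 0.089 for Odc1. Without the 4th set, Gch1 for KO minus WT in M2 was 0.0087 and Nos2 averaged over states -0.078. When each array was left out in turn, KO minus WT in M0 ran from -0.48 to 0.85 for Arg2, -0.30 to 0.11 for Odc1 and -0.10 to 0.48 for Slc7a2. In M1 it ran from -0.15 to 0.052 for Nos2. In M2 it ran from -0.061 to 0.94 for Arg2, -0.30 to 0.082 for Odc1, -0.040 to 0.013 for Gch1 and -0.69 to 0.087 for Nos2. Averaged over states it ran from -0.080 to 0.23 for Nos2 and -0.019 to 0.035 for Asl. The M2 change ran from -0.48 to 0.50 for Arg2 in KO, -0.91 to 0.42 for Arg2 in WT and -0.21 to 0.022 for Gch1 in WT, and the M2 response between genotypes from -0.48 to 0.86 for Arg2, -0.23 to 0.18 for Odc1 and -0.0035 to 0.11 for Asl. The M1 response between genotypes ran from -0.14 to 0.17 for Gch1, and the M1 against M2 contrast between genotypes from -0.15 to 0.625 for Nos2. The cause of these changes was not tested.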

Other observations

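Markers of cell types other than macrophages were dim for most lists. The sum of the 2 B cell markers, relative to the 75th percentile, was 0.0552 to 0.128 in KO M1 and 0.0231 to 0.0423 in WT M1, and both genes passed as higher in KO M1, although Cd79a was well above background on 1 of 4 arrays in each M1 group. The measured epithelial marker, Krt18, also passed as higher (adjusted p = 0.0080) but was well above background on 0 of 4 arrays in each M1 group, so no fold is given. The measured T cell marker summed to 0.628 to 0.973 in KO M1 and 0.650 to 0.838 in WT M1, and the 3 fibroblast markers to 0.114 to 0.964 in KO M1 and 0.176 to 0.440 in WT M1, none of which passed. With LPS and IFNγ, 1 of 6 neutrophil markers rose and none fell in KO, and in WT 1 rose and 5 fell. Of all genes, 56.4% were called in KO and 47.8% in WT. No neutrophil marker passed for the difference between the M1 responses of the genotypes.

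Of the 53 measured pathway genes, 9 rose and 3 fell with IL-4 in KO, and 8 rose and 4 fell in WT, beside 13% of all genes called in KO and 15.1% in WT. With LPS and IFNγ 18 rose and 19 fell in KO, and 14 rose and 14 fell in WT, beside 56.4% of all genes called in KO and 47.8% in WT. In this comparison 7 of 9 transcription factors rose and 1 fell in each genotype. Whether these counts differ was not tested. The difference between the M1 responses itself passed for 19 of the 53 genes, 10 higher and 9 lower in KO, against 29.8% of all genes.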
